A study of Mus musculus with 9 samples.

Results

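HR-positive LP cells were compared with HR-negative LP cells, both FACS-sorted from the mammary gland of adult mice as lineage-negative cells with the surface protein CD14. The populations were told apart by a YFP reporter tied to PR-cre: HR-positive LP was the CD14-positive, YFP-positive gate and HR-negative LP the CD14-positive, YFP-negative gate. The comparison used 6 of the 9 libraries of the series, 3 for each of these populations, chosen by their labels. The other 3 libraries, labelled ML, came from CD14-negative cells. They entered the filter on low counts, the scaling and the fit, where they help to estimate the spread between libraries. Their levels are given as a further reference. A contrast of ML with HR-positive LP was used only to find genes apart from both other populations. The labels call ML YFP positive, whereas the series' design text calls it YFP negative. All 9 libraries were bulk RNA from cells named by PR-cre and YFP. The reporter marks cells by the activity of PR-cre, now or earlier in their lineage, so a cell sorted as YFP positive need not hold progesterone receptor at the time of the sort. All came from adult tissue. Strain, exact age and the number of animals behind a library are not known from the labels, so p-values measure the spread between these libraries.

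The luminal layer of the mammary duct holds cells with estrogen and progesterone receptors, which sense ovarian hormones and answer with secreted signals to their neighbours, and cells with little of these receptors, which supply the milk-secreting alveoli. Prolactin acts on this layer through its receptor, the kinase JAK2 and the transcription factor STAT5. CD14, a co-receptor for bacterial lipopolysaccharide, is known as a marker of luminal progenitor cells.

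Library totals ranged from 29843142 to 108119756 counts in HR-negative LP and from 64779135 to 99206739 in HR-positive LP. In a principal component analysis of the 6 libraries, the first component held 72.1% of the variance and separated the populations. The second held 13.5% and set HR-negative LP replicate 1 (40.8) and replicate 3 (-39.8) at opposite ends. The 15 genes of the mitochondrial genome took 1.49 to 1.64% of the counts in HR-negative LP and 1.92 to 2.28% in HR-positive LP. Krt8 and Krt18, the keratins of simple epithelia, were abundant in both populations. They stood at 4334 ± 701 and 4644 ± 799 CPM and at 3129.9 ± 99.8 and 2782 ± 383 CPM in HR-negative and HR-positive LP (mean ± SD, n = 3). Neither was called. Of 12 tested luminal epithelial markers, 3 were higher in HR-positive LP, 4 were lower and 5 were not called. That is 25% higher and 33.3% lower, beside 17.2% and 12.8% of all tested genes. CPM is the count scaled to a common library size with TMM factors.

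Of the genes of the gate, Pgr followed the labels. Pgr (gene ID 18667, chromosome 9, 8898900 to 8968611, mm10), the progesterone receptor gene, stood at 6.32, 15.8 and 6.12 CPM in the 3 HR-negative LP libraries and at 204, 329 and 303 CPM in the 3 HR-positive LP libraries. Cd14 (gene ID 12475, chromosome 18, 36725064 to 36726815) stood at 1167, 1179.5 and 995 CPM and at 284, 348 and 340.0 CPM. Both populations were sorted as CD14 positive, and all 3 HR-positive LP libraries still lay below all 3 HR-negative LP libraries. Because both genes are tied to the sort, their differences are not counted as findings. That of Pgr is a check of the labels. The shared CD14 gate does not predict the fall of Cd14, and its cause was not tested.

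Differences between both populations were wide in number and lopsided in size. Of 15910 tested genes, 4764 (29.9%) passed edgeR's quasi-likelihood F test at an adjusted p of 0.05. HR-positive LP was higher for 2731 (17.2%) and lower for 2033 (12.8%). With an absolute log2 fold change over 1, the counts were 1709 (10.7%) higher and 1016 (6.39%) lower. With one over 3, they were 823 (5.17%) higher and 19 (0.119%) lower. Without regard to the test, the CPM of the 3 libraries a group did not overlap in 3878 genes (24.4%) higher in HR-positive LP. The same held for 3103 (19.5%) lower ones. Genes that rose included 282 with more than an 8-fold difference among the 1955 called at over 10 CPM in HR-positive LP. Among 1840 genes that fell and held over 10 CPM in HR-negative LP, none did. Their median was 1.92-fold, 95% lay below 3.44-fold, and the largest was 7.07-fold. The median log2 fold change of all tested genes was 0.01. With libraries scaled by their totals alone it was 0.12, and 3182 genes were higher and 1535 lower, so that 67.5% of calls were rises in place of 57.3%. Leaving out HR-positive LP replicate 1 gave 1329 lower genes, and leaving out its replicate 2 gave 1211.

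**Figure D1:**
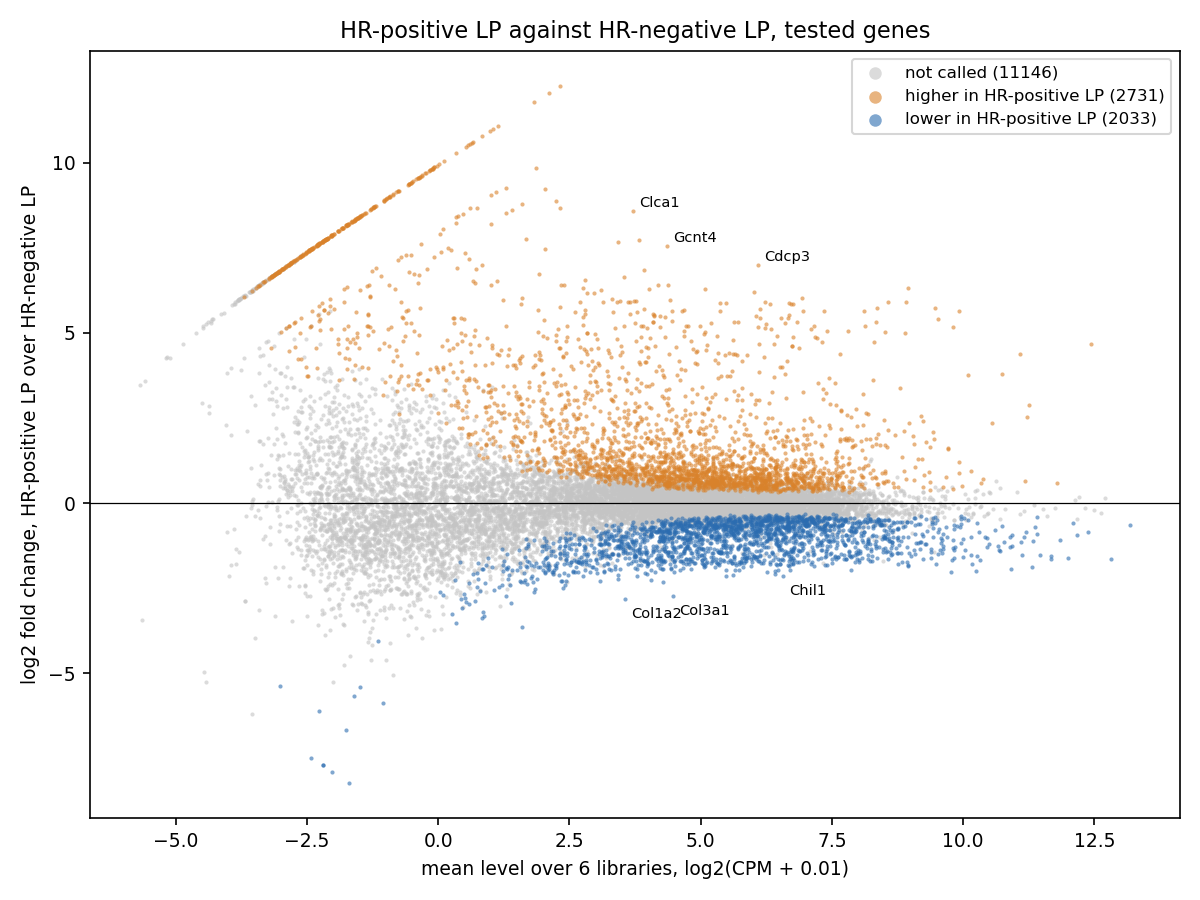
Log2 fold change of HR-positive LP over HR-negative LP (vertical axis) against mean level over the 6 libraries in log2(CPM + 0.01) (horizontal axis), 1 point per tested gene. Genes called at an adjusted p of 0.05 are coloured, 2731 higher and 2033 lower. In each direction 3 of the largest changes among genes with a log2 mean CPM over 3 are named. The slanted line of points holds genes with 0 counts in HR-negative LP, whose fitted values depend on the prior count. Rises spread upward past a log2 value of 6, whereas falls of well-measured genes stay above -3.

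Several of the genes with the largest rises held under 1 CPM in HR-negative LP. Clca1 (gene ID 23844, chromosome 3, 145004537 to 145032776), which encodes a secreted protease of mucus, was at 0.0807, 0.0307 and 0.143 CPM in HR-negative LP against 18.4, 18.9 and 40.8 CPM in HR-positive LP (log2 fold change 8.58 with SE 0.63, adjusted p = 7.07e-06). The lowest HR-positive LP library was far above the highest HR-negative LP library. Ctse (gene ID 13034, chromosome 1, 131638314 to 131675507), the gene of the endosomal protease cathepsin E, was at 0.303, 0.0614 and 0.0358 CPM and at 37.9, 25.997 and 20.7 CPM (log2 fold change 7.73 with SE 0.49, adjusted p = 2.84e-06). Dscam, a homophilic adhesion gene known from neurons, rose from 0.0937 ± 0.0677 to 21.5 ± 11.2 CPM, and Crym, which encodes a thyroid hormone binding protein, from 0.349 ± 0.411 to 29.9 ± 4.797 CPM. Plac8 rose from 0.309 ± 0.356 to 22.97 ± 3.01 CPM. Ror2, a receptor for Wnt5a, rose from 0.386 ± 0.191 to 26.1 ± 4.097 CPM, and Mgat3, which adds the bisecting sugar to N-glycans, from 0.388 ± 0.149 to 24.2 ± 0.807 CPM. Ache, the acetylcholinesterase gene, rose from 0.288 ± 0.372 to 21.7 ± 14.1 CPM, Cdh13, which encodes a cadherin without a cytoplasmic tail, from 0.259 ± 0.29003 to 16.9 ± 12.5 CPM, and Msc, a basic helix-loop-helix repressor gene, from 0.334 ± 0.544 to 26.7 ± 6.496 CPM. Ptpn5, a phosphatase gene known from neurons, was at 0, 0.8596 and 0.429 CPM against 4.53, 76.4 and 42.3 CPM. By the rule that chose them the groups did not overlap in any of these genes. With limma voom in place of edgeR, Dscam, Ache, Cdh13 and Ptpn5 were not called.

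Among called genes with a log2 mean CPM over 3 and no overlap between the groups, the largest falls by fold were those of the collagen genes Col1a2 and Col3a1. Predicted and unnamed genes were left out of this ranking. Col1a2 (gene ID 12843, chromosome 6, 4505618 to 4541543), which encodes a chain of collagen I, fell from 12.7, 23.7 and 25.6 CPM to 1.68, 2.85 and 4.25 CPM (log2 fold change -2.82 with SE 0.39, adjusted p = 0.000361), and Col3a1, the collagen III gene, from 38.7 ± 11.8 to 5.81 ± 3.904 CPM. Col1a1, the gene of the other collagen I chain, fell from 14.4 ± 8.18 to 3.53 ± 0.939 CPM and Pdgfra, a platelet-derived growth factor receptor gene, from 17.5 ± 5.52 to 4.02 ± 0.894 CPM. The call of Pdgfra was lost with DESeq2 (adjusted p = 0.0986) and without any 1 of HR-negative LP replicates 1 and 2 and HR-positive LP replicates 1, 2 and 3 (0.0662 to 0.129). These 4 genes are among the 15 fibroblast markers. Of those markers 11 (73.3%) fell and 2 (13.3%) rose, beside 12.8% and 17.2% of all tested genes. Their sums were 98.3 to 169 CPM in HR-negative LP against 176 to 312 CPM in HR-positive LP. The part of fibroblasts in these falls was not tested. Col9a1 (gene ID 12839, chromosome 1, 24177589 to 24252738), which encodes a chain of collagen IX, went from 30.3, 38.6 and 28.8 CPM to 7.01, 6.75 and 5.92 CPM (log2 fold change -2.31 with SE 0.33, adjusted p = 0.000427). Emid1, another extracellular matrix gene, fell from 27.5 ± 5.43 to 5.73 ± 0.547 CPM. Car12 and Car2, both carbonic anhydrase genes, fell from 80.2 ± 23.3 to 18.4 ± 2.45 CPM and, for the latter, from 24.7 ± 10.2 to 6.0001 ± 1.96 CPM. Lgr5, the R-spondin receptor gene known as a stem cell marker, was at 11.8, 15.002 and 15.3 CPM against 2.95, 2.43 and 3.29 CPM (log2 fold change -2.28 with SE 0.55, adjusted p = 0.00973). Blnk, an adaptor gene of B cell receptor signalling, fell from 13.1 ± 3.59 to 3.15 ± 0.4302 CPM. Khdrbs3, a splicing regulator gene, fell from 22.4 ± 3.48 to 5.11 ± 0.629 CPM, Marchf3, a ubiquitin ligase gene, from 35.9 ± 5.096 to 8.89 ± 1.196 CPM, and Pinc, a long noncoding RNA gene named for its induction in pregnancy, from 25.7 ± 4.34 to 6.03 ± 1.28 CPM. In ML 4 of the genes outside the fibroblast markers were nearly silent, with Col9a1 at 0.0771 ± 0.0845, Emid1 at 0.0724 ± 0.0598, Car2 at 0.0451 ± 0.0229 and Pinc at 0.0963 ± 0.0304 CPM.

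The rises of abundant genes are given next. Slc12a2 (gene ID 20496, chromosome 18, 57878512 to 57946821), the sodium, potassium and chloride cotransporter that loads epithelial cells with chloride, was at 241, 658 and 345 CPM in HR-negative LP against 10357, 11949 and 9559 CPM in HR-positive LP (log2 fold change 4.68 with SE 0.36, adjusted p = 7.84e-06). All HR-positive LP libraries were above all HR-negative LP libraries. Cd164, a sialomucin gene, rose from 589.6 ± 88.6 to 4317 ± 446 CPM, Glul, the glutamine synthetase gene, from 702 ± 123.2 to 4057 ± 1435 CPM, and Tgm2, the tissue transglutaminase gene, from 233 ± 61.1 to 3197 ± 1159.6 CPM. Agps, an enzyme gene of ether lipid synthesis, rose from 149.7 ± 18.7 to 2022 ± 243 CPM. Gpx3, a secreted glutathione peroxidase gene, was at 10.997, 74.2 and 28.4 CPM and 904, 3031 and 1805 CPM. Ptn, the gene of the growth factor pleiotrophin, was at 17.9, 91.5 and 36.2 CPM and 993, 2166 and 2085 CPM. Slc7a2, a transporter gene of cationic amino acids, was at 12.9, 66.5 and 20.7 CPM and 1330.5, 1685 and 1275 CPM. In each of these 3 genes the lowest HR-positive LP library exceeded the highest HR-negative LP library by more than 10-fold.

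Abundant genes that fell kept substantial levels in HR-positive LP. Igfbp5 (gene ID 16011, chromosome 1, 72858065 to 72874865), a binding protein of insulin-like growth factors known from the involuting gland, was at 8352, 13971 and 10515 CPM in HR-negative LP against 3660.4, 3689 and 3185 CPM in HR-positive LP (log2 fold change -1.64 with SE 0.35, adjusted p = 0.00494). The groups did not overlap. Plet1, which encodes a surface protein of epithelial progenitor cells, fell from 6162 ± 1561 to 2011 ± 616 CPM, and Errfi1, a feedback inhibitor gene of the EGF receptor, from 4885 ± 1316 to 1652 ± 467 CPM. Fcgbp, a mucus protein gene, fell from 3298 ± 92.5 to 1152 ± 252 CPM, Itm2b from 3009 ± 465 to 1361 ± 112 CPM, and Sik1, a salt-inducible kinase gene, from 3522 ± 417 to 1631 ± 15.1 CPM. Ltf, the lactoferrin gene, was at 4662, 4033 and 3847 CPM and 1451, 1273 and 1653 CPM, and Lcn2, the gene of the siderophore binding protein lipocalin 2, at 3599, 4108 and 4198 CPM and 860.0, 1108 and 1306 CPM (log2 fold change -1.86 with SE 0.58, adjusted p = 0.0315). The populations did not overlap in either gene, and both stayed abundant in HR-positive LP. The call of Ltf was lost without HR-positive LP replicate 1 or 2, and that of Lcn2 without any 1 of HR-negative LP replicates 2 and 3 and HR-positive LP replicates 1, 2 and 3.

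**Figure D2:**
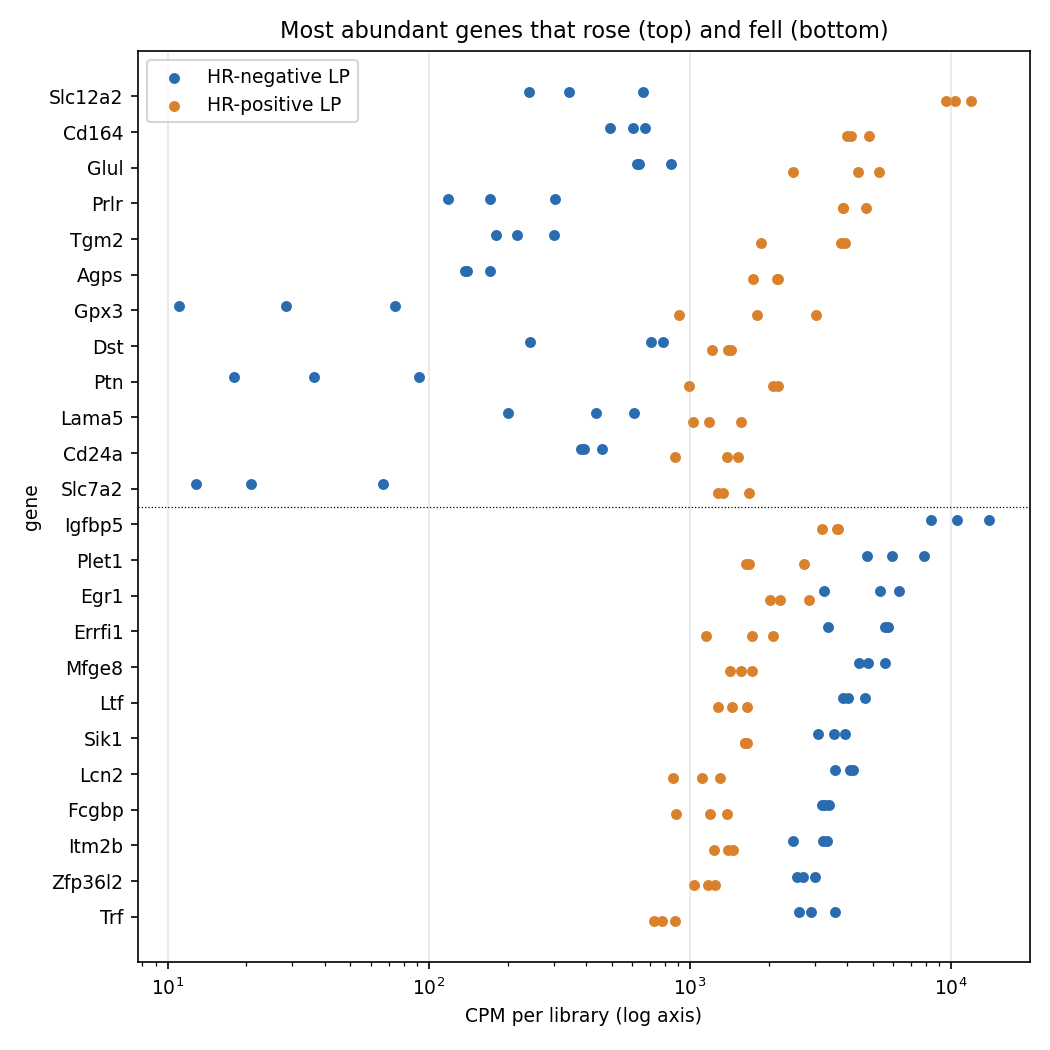
Level in each of the 6 libraries, in CPM on a log axis (horizontal), for the 12 most abundant genes that rose and the 12 most abundant that fell with an absolute log2 fold change over 1 (vertical). Each point is 1 library, coloured by population, and the populations did not overlap in any of the 24 genes. Among all tested genes, the populations did not overlap in 24.4% that were higher and 19.5% that were lower in HR-positive LP.

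The prolactin receptor gene was among the 12 most abundant genes that rose, and the start sites of the leading genes were searched for the letters that STAT factors are known to bind. The motif was TTCNNNGAA, which reads the same on both strands, in RefSeq windows (GRCm38.p6) from 250 bases before to 50 bases after a start. It occurred in 8.3% of all 32851 windows, in 6.94% of the 14870 windows of tested genes, in 7.6% of the 1697 windows of genes higher with a log2 fold change over 1, and in 5.75% of the 974 windows of genes lower by as much. A match is a description of letters, not of binding. Other motifs searched on both strands were TGANTCA of AP-1 (5.6% of tested, 7.96% of higher and 6.16% of lower windows), the TATA box TATAAA (7.78, 10.2 and 10.4%), TGTTTAC of forkhead factors (2.63, 3.01 and 3.18%) and ACANNNTGT, the core of steroid receptor sites (4.33, 4.66 and 5.65%). The estrogen receptor palindrome occurred in 2 windows of tested genes and in 0 of changed genes. The windows below are all those with the motif among the largest and most abundant changes and the receptor gene Esr1, shown so that the motif can be seen at a prolactin and an estrogen receptor gene and at genes of mucosal and alveolar type. STAT was chosen for printing after the changes were known. They are written 5′ to 3′ on the strand of the gene, with the motif in capitals. Prlr has 3 windows in the table, Esr1, Gcnt4 and Muc13 have 2 each, and Pinc has 1.
Prlr (chr15:10223656-10223955, plus strand): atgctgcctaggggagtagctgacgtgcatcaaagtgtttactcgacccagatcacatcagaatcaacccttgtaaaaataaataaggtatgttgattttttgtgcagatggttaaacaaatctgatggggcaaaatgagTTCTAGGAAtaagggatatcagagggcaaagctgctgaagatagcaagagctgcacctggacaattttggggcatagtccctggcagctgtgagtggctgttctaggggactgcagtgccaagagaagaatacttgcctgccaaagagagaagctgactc
Esr1 (chr10:4709908-4710207, plus strand): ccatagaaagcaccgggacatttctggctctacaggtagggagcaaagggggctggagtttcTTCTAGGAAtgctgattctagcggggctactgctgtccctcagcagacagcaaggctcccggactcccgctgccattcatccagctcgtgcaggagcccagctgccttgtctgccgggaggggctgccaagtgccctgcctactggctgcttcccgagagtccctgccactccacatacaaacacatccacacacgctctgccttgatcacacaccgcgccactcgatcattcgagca
Gcnt4 (chr13:96924094-96924393, plus strand): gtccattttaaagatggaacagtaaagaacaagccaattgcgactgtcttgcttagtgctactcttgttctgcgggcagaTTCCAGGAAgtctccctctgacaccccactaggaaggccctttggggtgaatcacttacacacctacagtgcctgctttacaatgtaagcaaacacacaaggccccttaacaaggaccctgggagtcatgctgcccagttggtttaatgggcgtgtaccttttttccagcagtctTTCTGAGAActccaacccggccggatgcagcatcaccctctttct
Muc13 (chr16:33793787-33794086, plus strand): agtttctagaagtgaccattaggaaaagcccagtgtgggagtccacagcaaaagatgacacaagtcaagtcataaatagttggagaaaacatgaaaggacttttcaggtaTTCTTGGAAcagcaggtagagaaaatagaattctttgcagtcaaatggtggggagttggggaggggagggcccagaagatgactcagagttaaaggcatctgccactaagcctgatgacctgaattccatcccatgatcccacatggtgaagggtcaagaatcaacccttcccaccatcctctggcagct
Pinc (chr1:73407520-73407819, minus strand): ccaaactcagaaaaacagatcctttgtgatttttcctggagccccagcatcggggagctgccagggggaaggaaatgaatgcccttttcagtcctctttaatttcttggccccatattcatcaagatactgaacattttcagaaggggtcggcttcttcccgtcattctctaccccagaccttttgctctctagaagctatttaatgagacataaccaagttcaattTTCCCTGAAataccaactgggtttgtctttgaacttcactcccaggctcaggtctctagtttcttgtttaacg
Prlr (gene ID 19116, chromosome 15, 10177238 to 10349190) was at 119, 303 and 171 CPM in HR-negative LP against 3849.9, 4700.3 and 3839 CPM in HR-positive LP. Muc13, a transmembrane mucin gene, was at 1.45, 6.99 and 2.36 CPM and 245, 291 and 189 CPM, and Gcnt4, which branches mucin-type sugar chains, at 0.222, 0.0307 and 0.644 CPM and 34.7, 36.2 and 51.02 CPM. Esr1 was at 8.98, 20.6 and 15.6 CPM and 119.6, 116 and 133 CPM. In these 4 genes every HR-positive LP library was the higher, and in Pinc, at 25.3, 30.2 and 21.5 CPM and 6.31, 7.16 and 4.63 CPM, every one was the lower.

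Hormone and cytokine receptors changed in both directions, with the receptor gene Lifr up and its ligand gene Lif down. Of 48 tested cytokine receptor and JAK-STAT genes, 11 rose and 9 fell (median log2 fold change -0.03). That is 22.9% and 18.8%, beside 17.2% and 12.8% of all tested genes. Falls numbered 3 when replicate 2 of HR-negative LP or replicate 2 of HR-positive LP was left out and 5 when replicate 1 of HR-positive LP was left out. Lifr, the receptor gene of leukemia inhibitory factor, rose from 44.5 ± 10.3 to 235 ± 50.01 CPM (log2 fold change 2.40 with SE 0.23, adjusted p = 3.53e-05), and its ligand gene Lif fell from 747 ± 262 to 226 ± 65.9 CPM (log2 fold change -1.72 with SE 0.34, adjusted p = 0.00311). Il13ra1, a shared receptor gene of interleukins 4 and 13, rose from 84.9 ± 6.98 to 199 ± 11.9 CPM. The common signal chain gene Il6st, at 225 ± 74.2 and 313 ± 54.4 CPM, and Osmr, the oncostatin M receptor gene, at 449.8 ± 156 and 286 ± 89.8 CPM, were not called (adjusted p = 0.191 and 0.213). Of 32 nuclear receptor genes 6 (18.8%) rose and 8 (25%) fell (median 0.10). Nr2f2, an orphan receptor gene, rose from 2.01 ± 1.25 to 12.02 ± 1.06 CPM, and the estrogen-related receptor genes Esrrb and Esrrg from 0.604 ± 0.866 to 10.99 ± 6.56 CPM and, for the latter, from 4.68 ± 0.907 to 22.2 ± 1.03 CPM. Nr3c1, the glucocorticoid receptor gene, fell from 85.7 ± 5.896 to 50.5 ± 6.03 CPM.

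Genes known to carry or report ovarian hormone signals included some of the clearest rises. Of 11 tested genes, 5 (45.5%) rose and 1 (9.09%) fell (median log2 fold change 4.61), beside 17.2% and 12.8% of all tested genes. Wnt4, a Wnt ligand gene induced by progesterone, was at 4.56, 15.9 and 4.22 CPM in HR-negative LP against 171, 254 and 192 CPM in HR-positive LP (log2 fold change 4.61 with SE 0.48, adjusted p = 5.52e-05). Stc2, the gene of the glycoprotein stanniocalcin 2, was at 6.699, 17.5 and 5.12 CPM and 257, 419.9 and 309.6 CPM. Cited1, a transcriptional coregulator gene of estrogen receptor, rose from 5.499 ± 4.52 to 169 ± 53.5 CPM. The groups did not overlap in these genes. Inhbb, which encodes an activin subunit, was the member that fell, from 709 ± 246 to 380.4 ± 61.4 CPM, and its call was lost without HR-negative LP replicate 2 and likewise without HR-positive LP replicate 3. The falls numbered 2 when replicate 1 of HR-negative LP was left out and 0 when replicate 2 of HR-negative LP or replicate 3 of HR-positive LP was left out. Of the 16 genes on the list, Tnfsf11, the gene of the progesterone-induced ligand RANKL, had 0 counts in all 6 libraries and was among those that did not pass the filter on low counts (named after its values were seen).

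Growth factor receptor genes changed in both directions, beside 17.2% higher and 12.8% lower of all tested genes. Of 28 receptor tyrosine kinase genes outside the EGF family, 5 rose and 9 fell (median -0.79). Fgfr2, the receptor gene of fibroblast growth factors 7 and 10, was at 13.2, 37.4 and 35.02 CPM in HR-negative LP against 868, 926 and 960.4 CPM in HR-positive LP (log2 fold change 5.01 with SE 0.35, adjusted p = 5.22e-06), and Fgfr1 fell from 861 ± 80.9 to 518 ± 22.1 CPM (log2 fold change -0.73 with SE 0.13, adjusted p = 0.00138). Met, the hepatocyte growth factor receptor gene, fell from 539 ± 45.9 to 201 ± 10.9 CPM (log2 fold change -1.42 with SE 0.15, adjusted p = 5.44e-05). Alk, the gene of a receptor kinase known from the nervous system, had 0 counts in all HR-negative LP libraries and stood at 6.85, 6.86 and 7.47 CPM in HR-positive LP, at least 412-fold higher (against a floor of 3 counts over the empty group). In the EGF family 6 rose and 6 fell of 18 tested (median log2 fold change -0.10). Adam10, the sheddase gene, rose from 111 ± 26.9 to 606 ± 17.8 CPM and Nrg4 from 2.19 ± 1.09 to 34.9 ± 12.5 CPM, whereas the ligand genes Hbegf and Nrg2 fell from 379 ± 107 to 143 ± 47.2 CPM and, for the latter, from 35.5 ± 4.78 to 11.96 ± 0.965 CPM. Erbb3 was at 224 ± 82.7 and 338 ± 26.4 CPM and was not called (adjusted p = 0.0666). It was called with library totals (adjusted p = 0.0195), with limma voom (0.0264) and without HR-negative LP replicate 2 (0.00231). In the IGF axis 2 rose and 4 fell of 13 tested (median log2 fold change -1.52), with Igf1r down from 195 ± 64.04 to 67.7 ± 10.5 CPM and Igf2r up from 170.2 ± 47.3 to 347 ± 10.5 CPM. Such falls numbered 2 when replicate 2 of HR-positive LP was left out.

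Developmental signalling genes changed in both directions within each pathway. Rises took 20 to 26.2% and falls 23.3 to 29.3% of the tested members of a list, beside 17.2% and 12.8% of all tested genes. In the TGF-beta and BMP list 11 rose and 11 fell of 42 tested (median log2 fold change -0.10). Here falls numbered 7 when replicate 2 of HR-positive LP was left out. Tgfb1 rose from 10.2 ± 2.25 to 54.7 ± 10.2 CPM, the receptor gene Tgfbr2 from 109 ± 9.48 to 269.9 ± 7.18 CPM and the coreceptor gene Eng from 5.32 ± 3.48 to 112 ± 11.2 CPM, whereas Tgfb2 fell from 29.4 ± 2.58 to 7.896 ± 0.999 CPM and Ltbp2, which encodes a matrix protein related to the latent TGF-beta binding proteins, from 176 ± 10.8 to 70.9 ± 8.299 CPM. In the Wnt list 10 rose and 12 fell of 41 tested (median log2 fold change -0.32). Falls numbered 6 when replicate 2 of HR-positive LP was left out and 7 when replicate 3 of HR-positive LP was left out. Wnt5a, a ligand gene of the noncanonical branch, was at 0.646, 3.33 and 3.33 CPM and 95.9, 90.97 and 104 CPM (log2 fold change 5.32 with SE 0.46, adjusted p = 1.69e-05), and the receptor gene Fzd10 rose from 1.34 ± 0.943 to 52.5 ± 15.6 CPM. The coreceptor gene Lrp5, at 244 ± 38.2 and 317 ± 65.3 CPM, was not called. In the Notch list 6 rose and 7 fell of 30 tested (median log2 fold change -0.24). Lfng, which modifies Notch receptors, rose from 0.301 ± 0.491 to 13.2 ± 2.12 CPM, and Dtx4 from 9.91 ± 1.54 to 39.6 ± 5.11 CPM, whereas Numb, an inhibitor of Notch, fell from 303 ± 63.4 to 129 ± 7.76 CPM. Notch3 was at 369.9 ± 78.4 and 343 ± 24.6 CPM and was not called.

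In several transcription factor families more genes fell than rose. In the C/EBP, Id, KLF, AP-2 and grainyhead families 3 rose and 15 fell of 30 tested (median log2 fold change -0.59), so that 50% fell against 12.8% of all tested genes. Cebpd fell from 1916, 2009 and 1549 CPM to 521, 705 and 634 CPM (log2 fold change -1.56 with SE 0.16, adjusted p = 4.28e-05). Id1 and Id3, both inhibitors of basic helix-loop-helix factors, moved in opposite directions, Id1 from 44.4 ± 13.3 to 11.7 ± 1.45 CPM and Id3 from 8.97 ± 2.85 to 61.6 ± 0.649 CPM. Tfap2b rose from 75.8 ± 1.66 to 176 ± 33.8 CPM. Klf4 was at 1554 ± 322 and 1278 ± 148 CPM and was not called. In the SOX, NFI, RUNX and Bcl11 families 3 rose and 10 fell of 20 tested (median log2 fold change -0.67). Sox6 fell from 61.1 ± 20.7 to 22.8 ± 2.77 CPM, Nfix from 220.3 ± 46.02 to 113 ± 7.73 CPM and Bcl11a, a factor of receptor-negative progenitors, from 32.5 ± 10.8 to 11.1 ± 2.498 CPM. Runx1 rose from 179.7 ± 26.9 to 384 ± 52.1 CPM, and Sox9, at 912 ± 234 and 889 ± 189 CPM, was not called. Among ETS factors 5 rose and 6 fell of 19 tested (median log2 fold change -0.30). Rises numbered 3 when replicate 2 of HR-negative LP or replicate 2 of HR-positive LP was left out. Ehf fell from 437 ± 112 to 171 ± 30.8 CPM, Ets2 from 3019.7 ± 603 to 1524 ± 253 CPM and Erf from 279.8 ± 38.2 to 134 ± 23.8 CPM, while Spdef, a factor of goblet and hormone-responsive cells, rose from 3.83 ± 0.583 to 19.9 ± 3.65 CPM and Etv4 from 1.45 ± 1.19 to 12.4 ± 2.66 CPM. In the forkhead, GATA and T-box list 6 rose and 6 fell of 29 tested (median log2 fold change -0.35). The falls numbered 10 when replicate 1 of HR-negative LP was left out. Foxc1 fell from 135 ± 20.2 to 43.04 ± 8.401 CPM and Foxi1, known from ionocytes, from 87.7 ± 22.8 to 28.7 ± 7.73 CPM, while Tbx3 rose from 43.3 ± 11.3 to 153 ± 3.54 CPM. Among homeobox genes Msx2 and Meis1 rose from 2.78 ± 1.06 to 36.7 ± 3.18 CPM and, for the latter, from 3.64 ± 0.833 to 20.7 ± 1.98 CPM, and Barx2 and Satb1 fell from 167 ± 39.5 to 49.7 ± 1.56 CPM and, for the latter, from 34.6 ± 2.39 to 10.6 ± 1.78 CPM. In that list 4 rose and 8 fell of 31 tested (median log2 fold change 0.00). The rises numbered 2 when replicate 2 of HR-negative LP, replicate 1, 2 or 3 of HR-positive LP or replicate 3 of ML was left out.

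Immediate early genes, which respond to growth factors and to the handling of tissue, were mostly lower in HR-positive LP. Of 38 tested genes 23 fell and 5 rose (median log2 fold change -0.92). Such rises numbered 3 when replicate 2 or 3 of HR-negative LP or replicate 1 or 2 of HR-positive LP was left out. Fos and Jun, the core of AP-1, were not called, at 6974 ± 2564 and 5689 ± 998 CPM and at 5398 ± 2137 and 4897 ± 778 CPM (adjusted p = 0.492 and 0.736). Ier5 fell from 2281 ± 411 to 952 ± 100.1 CPM and Zfp36l2, an RNA decay factor gene, from 2766 ± 227 to 1150.3 ± 103 CPM. Gadd45g, a stress sensor gene, rose from 38.5, 54.7 and 48.7 CPM to 405, 803 and 527 CPM (log2 fold change 3.61 with SE 0.29, adjusted p = 1.11e-05), Gadd45a rose from 37.4 ± 7.23 to 166 ± 40.7 CPM and Dusp4, a phosphatase gene of the MAP kinases, from 65.6 ± 7.65 to 265 ± 55.2 CPM. Whether the sort affected both populations alike was not tested. In the unfolded protein response and secretory folding list 9 rose and 6 fell of 48 tested (median log2 fold change 0.00). These shares, 18.8% and 12.5%, were near the 17.2% and 12.8% of all tested genes. Hspa5, the main chaperone gene of the endoplasmic reticulum, fell from 1869.6 ± 312 to 922 ± 75.4 CPM and Atf4 from 810.4 ± 56.3 to 367 ± 47.7 CPM, whereas Hsp90b1, at 590.0 ± 99.4 and 525 ± 14.3 CPM, was not called.

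Genes of secreted products changed in both directions, beside 17.2% higher and 12.8% lower of all tested genes. Of 19 tested milk protein and milk fat globule genes, 12 fell and 0 rose (median -1.59). Lalba, which encodes the lactose synthase cofactor alpha-lactalbumin, was at 71.7, 91.6 and 49.6 CPM and 10.4, 25.8 and 18.1 CPM. Plin2, a lipid droplet coat gene, fell from 293 ± 82.3 to 97.4 ± 18.2 CPM and Muc1, an apical mucin gene, from 317 ± 19.6 to 110.4 ± 12.3 CPM. In the mucin and mucosal list 7 rose and 9 fell of 29 tested (median log2 fold change -0.67). Such falls numbered 5 when replicate 1 or 3 of HR-positive LP was left out and 2 when replicate 2 of HR-positive LP was left out. Summed over its 87 genes, the mucin and mucosal list took 10849 to 11121 CPM in HR-negative LP against 4498 to 7249 CPM in HR-positive LP. The members named next are among those that rose. Muc16, a membrane mucin gene, rose from 0.222 ± 0.384 to 13.7 ± 7.73 CPM, Reg3g, an antibacterial lectin gene, from 0.371 ± 0.477 to 13.95 ± 2.03 CPM, and Dmbt1, a mucosal scavenger receptor gene, from 12.1 ± 10.7 to 970.3 ± 713 CPM. Muc16 was not called with limma voom. Of 6 uroplakin genes, which build the plaques of the bladder surface, 4 were tested and 3 rose. Upk2 was at 0.424, 1.402 and 0.429 CPM in HR-negative LP against 31.6, 38.3 and 29.7 CPM in HR-positive LP, and Upk3a at 1.19, 1.32 and 0.286 CPM and 34.5, 38.1 and 37.2 CPM (adjusted p = 7.69e-06 and 7.69e-06). Upk1b had 0 counts in HR-negative LP and stood at 0.391, 0.0778 and 0.438 CPM in HR-positive LP, and Upk1a, at 0.459 ± 0.347 and 0.361 ± 0.118 CPM, was not called. In all other lists with genes at 0 in a group, setting them to their bound left the median as printed. The uroplakin median was 5.25 as fitted and 4.66 with Upk1b at the bound that 3 counts in its empty group allow.

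Genes of sugar chains and of regulated release changed in both directions. Among mucin-type glycosyltransferases 17 rose and 12 fell of 69 tested (median log2 fold change -0.10), which is 24.6% and 17.4% beside 17.2% and 12.8% of all tested genes. Here falls numbered 7 when replicate 2 of HR-negative LP was left out, 4 when replicate 1 of HR-positive LP was left out and 5 when replicate 2 or 3 of HR-positive LP was left out. Gcnt2, the branching enzyme of the I blood group antigen, rose from 40.8 ± 11.8 to 232 ± 62.6 CPM, Gcnt1 from 0.876 ± 0.395 to 15.5 ± 2.55 CPM, St3gal4, a sialyltransferase gene, from 3.702 ± 1.88 to 38.5 ± 1.3997 CPM, and B3gnt7 from 0.497 ± 0.448 to 20.05 ± 0.997 CPM. Of 62 synaptotagmin, SNARE and exocytosis genes, 18 (29%) rose against 17.2% of all tested genes, and 5 fell. Falls numbered 2 when replicate 2 of HR-negative LP or replicate 2 or 3 of HR-positive LP was left out, and 3 with library totals. Syt7, a calcium sensor gene of vesicle and lysosome fusion, was at 0.767, 0.737 and 1.14 CPM and 58.2, 73.1 and 69.7 CPM (log2 fold change 6.30 with SE 0.21, adjusted p = 8.86e-08). Every HR-positive LP library lay far above every HR-negative LP library. Rab27b, a GTPase gene of secretory granules, rose from 23.4 ± 3.63 to 132 ± 18.8 CPM, and its effector gene Sytl2 from 1.198 ± 0.392 to 29.9 ± 2.16 CPM. Stxbp2 and Cadps2, at 125 ± 24.04 and 149 ± 8.13 CPM and 134 ± 16.5 and 117 ± 3.15 CPM, were not called. Among peptide hormone genes 5 rose and 5 fell of 24 tested (median log2 fold change 0.21). Here rises numbered 3 when replicate 2 of HR-negative LP or replicate 2 or 3 of ML was left out and 2 when replicate 2 or 3 of HR-positive LP was left out, and 3 with only the 6 libraries compared. The falls numbered 3 when replicate 1 of HR-positive LP was left out. Cck, the cholecystokinin gene, fell from 165 ± 72.8 to 42.4 ± 3.93 CPM, Tac1, the substance P gene, from 35.96 ± 3.15 to 12.9 ± 3.56 CPM, and Cpe, the gene of a prohormone carboxypeptidase, from 65.8 ± 3.002 to 20.6 ± 3.23 CPM. The call of Tac1 was lost without HR-positive LP replicate 1.

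Plasma-type protein genes changed often, in both directions. In that list 11 rose and 13 fell of 36 tested (median log2 fold change -0.10), and 30.6% rose against 17.2% of all tested genes while 36.1% fell against 12.8%. Fgg (gene ID 99571, chromosome 3, 83007724 to 83015056), the gamma chain gene of fibrinogen, was at 8.43, 24.7 and 13.7 CPM in HR-negative LP against 660.5, 692 and 1498 CPM in HR-positive LP (log2 fold change 5.92 with SE 0.53, adjusted p = 1.97e-05). Hp, the haptoglobin gene, was at 18.5, 9.97 and 11.4 CPM and 169, 134 and 244 CPM, and Itih2, which encodes a hyaluronan-linked inhibitor chain, at 0.605, 1.801 and 0.215 CPM and 53.6, 45.8 and 51.9 CPM. Each was higher in every HR-positive LP library. Among protease inhibitors 4 rose and 9 fell of 32 tested (median log2 fold change -0.42). Wfdc2, a secreted whey acidic protein domain gene, was at 18.3, 32.2 and 18.6 CPM and 598, 717 and 512 CPM (log2 fold change 4.72 with SE 0.27, adjusted p = 1.58e-06), whereas Cst3, the cystatin C gene, fell from 1677, 1390.1 and 1164 CPM to 320.2, 353 and 359 CPM (log2 fold change -2.04 with SE 0.18, adjusted p = 2.04e-05). Timp3, an inhibitor gene of metalloproteases, fell from 159 ± 50.95 to 58.4 ± 16.7 CPM. Of matrix protease genes 14 rose and 10 fell of 69 tested (median log2 fold change -0.33). Such falls numbered 18 with DESeq2 and 17 with limma voom, more than the 14 rises that each of these gave. Tmprss2, a membrane serine protease gene, rose from 175 ± 27.5 to 758 ± 95.7 CPM, Adamts9 from 2.27 ± 0.709 to 33.3 ± 8.31 CPM and Tmprss4 from 1.36 ± 0.822 to 30.5 ± 8.26 CPM, whereas Adamts3 fell from 155 ± 35.9 to 58.1 ± 3.31 CPM.

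Among lists with at least 15 tested members other than markers of cell types, antigen presentation had the highest share of rises. There 16 of 29 tested (55.2%) were higher and 1 (3.45%) was lower, beside 17.2% and 12.8% of all tested genes. Rises numbered 9 when replicate 2 of HR-positive LP was left out. Nlrc5, the transactivator gene of MHC class I, rose from 3.33 ± 1.37 to 14.3 ± 1.77 CPM, and the immunoproteasome genes Psmb8 and Psmb9 rose from 55.9 ± 18.9 to 114 ± 15.3 CPM and, for the latter, from 8.95 ± 3.13 to 33.1 ± 4.17 CPM. H2-Q7, a nonclassical class I gene, rose from 6.14 ± 1.86 to 26.8 ± 2.85 CPM and H2-T22 from 40.3 ± 8.39 to 84.3 ± 13.1 CPM, the latter with 48.1% of its windows of 50 bases also in another gene. Cd74, the invariant chain gene of class II, was the member that fell, from 4.62 ± 2.104 to 1.26 ± 0.346 CPM, a call lost with libraries scaled by totals and without HR-negative LP replicate 1 or 2 and without any 1 HR-positive LP replicate. Here falls numbered 0 when replicate 1 of HR-negative LP or replicate 1, 2 or 3 of HR-positive LP was left out, and 0 with library totals, 2 with DESeq2 and 3 with limma voom. Among interferon genes 18 (27.3%) rose and 7 (10.6%) fell of 66 tested (median log2 fold change 0.22), the falls near the 12.8% of all tested genes. Falls numbered 4 when replicate 2 of HR-positive LP was left out and 3 when replicate 3 of HR-positive LP was left out. Iigp1, an immunity-related GTPase gene, was at 10.9, 9.701 and 11.6 CPM and 135, 206 and 172 CPM, Usp18 rose from 1.51 ± 0.476 to 13.8 ± 1.49 CPM and Dtx3l from 21.9 ± 3.33 to 59.7 ± 6.82 CPM. Il33, the alarmin gene, was at 0.847, 0.686 and 0.715 CPM and 37.5, 27.96 and 36.5 CPM (log2 fold change 5.50 with SE 0.22, adjusted p = 1.43e-07), and its receptor gene Il1rl1 had 0 counts in all HR-negative LP libraries and stood at 1.35, 2.88 and 3.33 CPM in HR-positive LP, at least 147-fold higher. In the interleukin-1 and alarmin list 6 (28.6%) rose and 4 (19%) fell of 21 tested (median log2 fold change 0.18). The falls numbered 2 when replicate 2 of HR-positive LP was left out.

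Genes of bacterial sensing and leukocyte attraction moved both ways, and more chemokine genes fell than rose. In the Toll-like receptor and NF-kB list 7 rose and 9 fell of 40 tested (median log2 fold change -0.14). That is 17.5% and 22.5%, beside 17.2% and 12.8% of all tested genes. Such falls numbered 14 when replicate 1 of HR-negative LP was left out. Tlr2 fell from 20.8 ± 3.25 to 9.49 ± 1.57 CPM and Tank, an adaptor gene of this pathway, from 73.7 ± 9.08 to 41.02 ± 4.77 CPM, whereas Tnip1 and Tnip3, both feedback inhibitor genes, rose from 20.1 ± 2.24 to 49.2 ± 9.51 CPM and, for the latter, from 0.269 ± 0.449 to 13.6 ± 6.04 CPM. Rela and Nfkbia, at 327 ± 61.4 and 248 ± 46.2 CPM and 601 ± 146 and 469.8 ± 95.1 CPM, were not called, though Rela was without HR-negative LP replicate 1. Among chemokine genes 2 rose and 6 fell of 29 tested (median log2 fold change -0.41). Cxcl1, a neutrophil attractant gene, fell from 343 ± 161 to 117 ± 49.7 CPM, Cx3cl1 from 315 ± 33.2 to 177 ± 19.4 CPM and the scavenger receptor gene Ackr3 from 53.1 ± 19.4 to 14.8 ± 3.79 CPM, while Cxcl15 and Cxcl17 rose from 3.06 ± 2.16 to 137 ± 21.8 CPM and, for the latter, from 5.51 ± 2.34 to 38.3 ± 3.43 CPM. Csf3, the gene of granulocyte colony-stimulating factor, fell from 123.3 ± 62.5 to 37.1 ± 20.01 CPM. The call of Cxcl1 was lost without HR-negative LP replicate 2, and that of Csf3 without HR-negative LP replicate 3 and likewise without HR-positive LP replicate 2. In the TNF superfamilies 10 rose and 5 fell of 33 tested (median log2 fold change -0.18). Here falls numbered 3 when replicate 2 or 3 of HR-negative LP or replicate 2 of HR-positive LP was left out and 2 when replicate 1 of HR-positive LP was left out. Tnfrsf21, a death domain receptor gene, rose from 49.9 ± 16.8 to 201 ± 25.5 CPM, and Tnfrsf1b from 2.21 ± 1.27 to 21.9 ± 3.09 CPM.

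Among structural genes of the epithelium, more keratin genes rose than fell, and more junction genes fell than rose. Of all tested genes 17.2% were higher and 12.8% lower, beside 35.7% and 14.3% of keratin genes and 14.8% and 27.9% of junction genes. The shares were 24.4% and 22% for integrin and laminin genes and 18.9% and 26.4% for guidance genes. Keratin falls, junction rises and guidance rises were thus near the shares of all tested genes. Of 28 tested keratin genes 10 rose and 4 fell (median 1.13). Falls numbered 2 when replicate 2 or 3 of HR-negative LP or replicate 1 of HR-positive LP was left out. Krt6a was at 3.98, 8.903 and 6.26 CPM and 247, 268 and 439 CPM, although 59.4% of its windows of 50 bases occur in another gene, most in Krt6b. Krt4, a keratin gene of internal stratified epithelia, rose from 0.868 ± 0.707 to 18.7 ± 6.53 CPM. Krt14, known from basal cells, fell from 14.3 ± 5.91 to 4.22 ± 0.929 CPM. In the junction list 9 rose and 17 fell of 61 tested (median log2 fold change -0.42). The falls numbered 10 when replicate 2 of HR-positive LP was left out. Cldn10, which forms ion-selective pores, rose from 2.68 ± 1.28 to 58.4 ± 5.601 CPM and Cldn8 from 14.9 ± 1.78 to 53.8 ± 13.04 CPM, while Pkp1, a desmosome gene, fell from 303 ± 62.96 to 128 ± 17.7 CPM. Cldn4 and Ctnnb1, at 1300.1 ± 167 and 1609.5 ± 418 CPM and 999 ± 104 and 913 ± 35.2 CPM, were not called. Among integrin and laminin genes 10 rose and 9 fell of 41 tested (median log2 fold change -0.19). Itga3 and Itga5 rose from 75.2 ± 10.5 to 175 ± 13.2 CPM and, for the latter, from 2.32 ± 1.62 to 24.9 ± 1.02 CPM, Itga8 fell from 88.8 ± 16.98 to 29.3 ± 4.85 CPM and Itgb1, at 505 ± 13.1 and 437 ± 20.04 CPM, was not called. Among guidance genes 10 rose and 14 fell of 53 tested (median log2 fold change -0.64). Such falls numbered 8 when replicate 1 of HR-positive LP was left out and 7 when replicate 2 of HR-positive LP was left out. Nrp1, a semaphorin and VEGF coreceptor gene, rose from 0.764 ± 0.226 to 29.2 ± 4.95 CPM and Robo1, a Slit receptor gene, from 2.31 ± 0.869 to 36.02 ± 3.68 CPM, whereas Ntn4 fell from 136 ± 19.1 to 52.6 ± 6.38 CPM.

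Ion and nutrient transport genes changed in both directions. Rises took 18.6 to 29.4% and falls 13 to 23.8% of the tested members of a list, beside 17.2% and 12.8% of all tested genes. Among potassium and chloride channel genes 20 rose and 13 fell of 68 tested (median log2 fold change 0.03). Here falls numbered 8 when replicate 1, 2 or 3 of HR-positive LP was left out. Kcnh1, a voltage-gated potassium channel gene, was at 1.07, 2.43 and 0.2504 CPM and 81.4, 62.99 and 101 CPM. The subunit genes of the epithelial sodium channel parted, with Scnn1a up from 60.2 ± 11.8 to 198 ± 19.1 CPM and Scnn1b down from 156 ± 20.9 to 60.8 ± 7.47 CPM. In the aquaporin, TRP and calcium list 13 rose and 6 fell of 46 tested (median log2 fold change 0.37). Trpc6, a cation channel gene, was at 0.585, 2.69 and 1.86 CPM and 99.1, 152 and 134 CPM. Atp2c2, which encodes the secretory pathway calcium pump, rose from 11.96 ± 3.28 to 98.4 ± 21.5 CPM and Stim1 from 37.3 ± 6.48 to 109 ± 5.32 CPM, while Atp2b1, a calcium pump gene of the plasma membrane, fell from 592 ± 40.4 to 212 ± 20.6 CPM. Among sugar, lactate and amino acid transporters 16 rose and 15 fell of 63 tested (median log2 fold change -0.07). Slc5a6, a vitamin transporter gene, rose from 10.9 ± 4.1001 to 178 ± 10.3 CPM, and Slc3a2, the heavy chain gene of several amino acid transporters, fell from 959 ± 89.9 to 374 ± 14.8 CPM. In the iron and zinc list 8 rose and 9 fell of 43 tested (median log2 fold change -0.07). Falls numbered 5 when replicate 2 of HR-positive LP was left out. Tfrc, the transferrin receptor gene, fell from 163 ± 23.8 to 71.8 ± 4.41 CPM and Steap2, a metalloreductase gene, rose from 11.7 ± 6.09 to 69.4 ± 2.801 CPM.

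Lipid and redox enzyme genes changed in both directions, beside 17.2% higher and 12.8% lower of all tested genes. Among fatty acid and triglyceride genes 15 rose and 13 fell of 41 tested (median log2 fold change 0.00). The falls numbered 7 when replicate 1 or 2 of HR-positive LP was left out. Dgat2, which makes triglyceride, was at 10.5, 23.4 and 21.9 CPM and 355, 520.4 and 281 CPM (log2 fold change 4.37 with SE 0.38, adjusted p = 1.78e-05), Lpin2 rose from 20.9 ± 5.01 to 178 ± 3.62 CPM and Gpam from 8.12 ± 0.518 to 51.3 ± 8.54 CPM, and Fasn, the fatty acid synthase gene, was not called at 211 ± 101 and 216 ± 10.7 CPM. In the cholesterol list 12 rose and 5 fell of 34 tested (median log2 fold change 0.17). Such falls numbered 2 when replicate 2 of HR-negative LP or replicate 2 of HR-positive LP was left out and 3 when replicate 1 or 3 of HR-positive LP was left out. The regulator gene Srebf2, at 248 ± 48.3 and 308 ± 48.3 CPM, was not called. Of 56 glutathione and thioredoxin genes 18 (32.1%) rose and 11 fell. Here falls numbered 7 when replicate 1 of HR-positive LP was left out and 6 when replicate 2 of HR-positive LP was left out. Gclc, the rate-limiting enzyme gene of glutathione synthesis, was at 33.4, 56.4 and 70.9 CPM and 373, 469 and 641 CPM, its partner gene Gclm rose from 23.3 ± 0.914 to 69.4 ± 10.4 CPM, and Gsr, which regenerates glutathione, from 31.9 ± 2.46 to 303 ± 41.4 CPM. Mgst1, a membrane glutathione transferase gene, fell from 669 ± 124 to 194 ± 17.9 CPM. Cyp3a57 rose from 4.24 ± 3.36 to 201 ± 83.1 CPM and Cyp2d22 fell from 139 ± 25.8 to 44.00 ± 0.637 CPM. Aldh1a3, a retinoic acid synthesis gene used as a marker of luminal progenitors, was at 1228, 1337 and 1448 CPM and 389.6, 390.1 and 489 CPM (log2 fold change -1.66 with SE 0.46, adjusted p = 0.0194), a call lost without HR-positive LP replicate 1 or 2. In glycolysis 8 rose and 8 fell of 33 tested (median log2 fold change 0.05). Falls numbered 5 when replicate 1 or 2 of HR-negative LP was left out, 4 when replicate 1 or 2 of HR-positive LP was left out and 3 when replicate 3 of HR-positive LP was left out, and 4 with library totals and 5 with only the 6 libraries compared. Hk2 rose from 14.7 ± 11.8 to 118 ± 32.1 CPM and Pfkfb4 from 5.34 ± 1.67 to 26.7 ± 7.98 CPM, Aldoc fell from 376 ± 64.9 to 138 ± 9.43 CPM, and Ldha, at 549 ± 21.2 and 447 ± 55.4 CPM, was not called.

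Ribosomal protein genes fell slightly and only in part. Of 81 tested genes 31 (38.3%) fell and 0 rose (median log2 fold change -0.41), beside 12.8% lower and 17.2% higher of all tested genes. The count of falls was 15 with library totals and 51 with DESeq2, and 48 when replicate 3 of HR-negative LP was left out, 18 when replicate 1 of HR-positive LP was left out, 17 when replicate 2 of HR-positive LP was left out and 16 when replicate 3 of HR-positive LP was left out. The rises numbered 1 when replicate 1 of HR-negative LP was left out. Rplp1 fell from 935 ± 214 to 556 ± 31.8 CPM, and Rpl4, at 1599 ± 236 and 1435 ± 20.6 CPM, was not called. Many of these genes share sequence with pseudogenes (57.8% of the windows of Rplp1), so their levels are uncertain. Genes of the mitochondrial genome also took a larger share of counts in HR-positive LP (1.92 to 2.28% against 1.49 to 1.64%), and the part of this in the next counts was not tested. Nuclear-encoded respiratory chain genes had 20 rises (25.3%) and 1 fall (1.27%) of 79. The count of rises was 41 when replicate 1 of HR-negative LP was left out, 11 without its replicate 2 and 10 without its replicate 3. It was 13 when replicate 1 of HR-positive LP or replicate 2 of ML was left out. It was 9 when replicate 2 or 3 of HR-positive LP was left out, and 10 with only the 6 libraries compared. The falls numbered 2 when replicate 1 of ML was left out, and 2 with only the 6 libraries compared, DESeq2 or limma voom. Mitochondrial ribosomal proteins had 9 rises of 78 (11.5%), under the 17.2% of all tested genes. The count was 27 when replicate 1 of HR-negative LP was left out, 3 when replicate 2 of HR-positive LP was left out and 4 when replicate 3 of HR-positive LP was left out, and 5 with only the 6 libraries compared and 15 with limma voom. Uqcr10 rose from 19.8 ± 7.95 to 44.2 ± 7.33 CPM and Mrps23 from 17.2 ± 4.48 to 31.2 ± 1.88 CPM.

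Counts of called cell cycle genes depended on single libraries, and stood beside 17.2% higher and 12.8% lower of all tested genes. Of 53 DNA replication genes 6 fell and 0 rose (median -0.19), with Cdt1, a licensing factor gene, down from 35.5 ± 6.19 to 15.8 ± 4.73 CPM. Such rises numbered 2 when replicate 1 of HR-negative LP was left out and 1 when replicate 2 of HR-negative LP was left out, and 1 with library totals, DESeq2 or limma voom. In mitosis 2 rose and 5 fell of 35 tested (median log2 fold change -0.49). The count of falls was 10 when replicate 1 of HR-negative LP was left out, 1 when replicate 2 or 3 of HR-negative LP or replicate 3 of HR-positive LP was left out, 3 when replicate 1 of HR-positive LP or replicate 3 of ML was left out and 0 when replicate 2 of HR-positive LP was left out, and 2 with library totals and 3 with only the 6 libraries compared. Here rises numbered 1 when replicate 3 of HR-negative LP, replicate 2 or 3 of HR-positive LP or replicate 2 of ML was left out, and 1 with only the 6 libraries compared. Mki67 and Top2a, at 33.6 ± 22.4 and 21.6 ± 5.496 CPM and 26.8 ± 14.3 and 18.1 ± 6.39 CPM, were not called, but both were without HR-negative LP replicate 1. Of regulators of the cell cycle, Rb1, the retinoblastoma gene, fell from 624 ± 79.4 to 226 ± 19.1 CPM (log2 fold change -1.47 with SE 0.15, adjusted p = 4.79e-05), Cdkn1a, the p21 gene, fell from 405 ± 87.2 to 180.1 ± 38.5 CPM, and Ccnd1, the cyclin D1 gene, was not called at 518 ± 139 and 450.4 ± 109 CPM. In the BCL2 family 6 rose and 3 fell of 19 tested (median log2 fold change 0.36). Bcl2, a survival gene, fell from 121, 141 and 119 CPM to 42.5, 37.1 and 40.2 CPM (log2 fold change -1.67 with SE 0.26, adjusted p = 0.000828) and Mcl1 from 1990.2 ± 130.3 to 823 ± 95.02 CPM, whereas Bcl2l14 and Bmf rose from 8.28 ± 2.07 to 37.1 ± 8.88 CPM and, for the latter, from 3.52 ± 0.68998 to 23.1 ± 12.05 CPM. Bcl2l1, at 87.2 ± 15.3 and 88.7 ± 1.93 CPM, was not called.

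**Figure D3:**
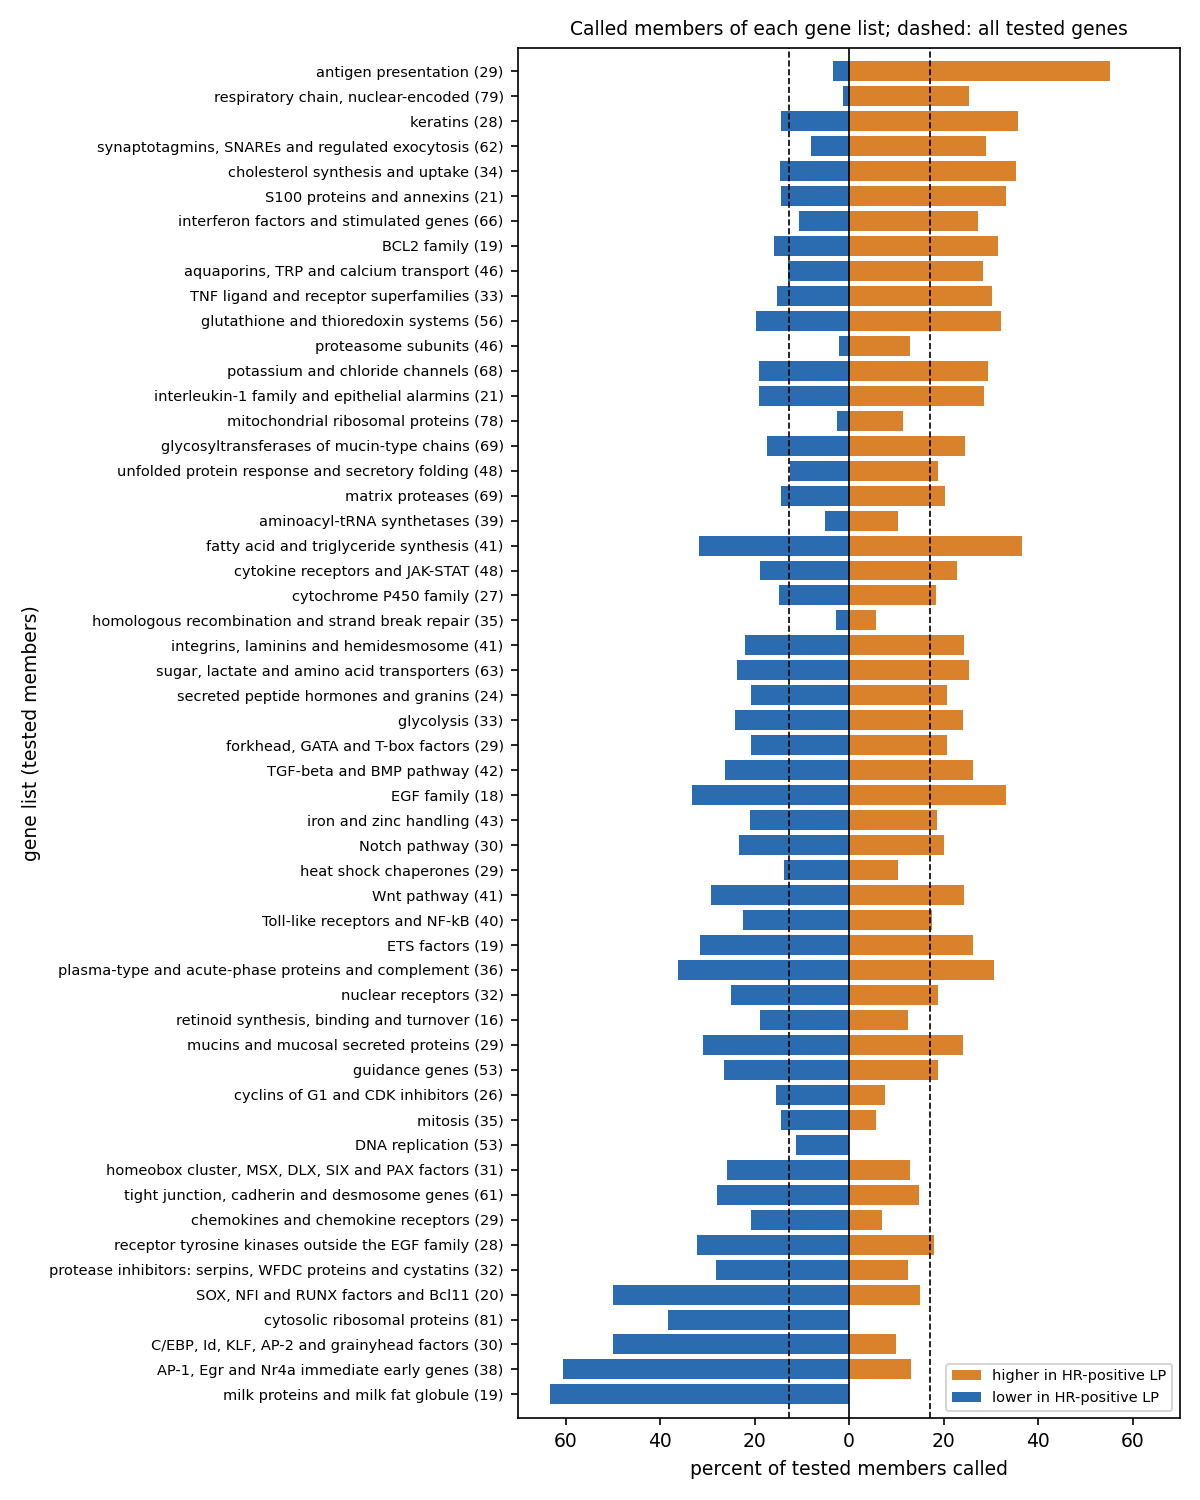
Share of the tested members of each gene list that rose (right, orange) or fell (left, blue) in HR-positive LP, in percent of tested members, for the lists with at least 15 tested members other than markers of cell types. Dashed lines mark the shares among all tested genes, 17.2% higher and 12.8% lower; antigen presentation reaches furthest right (55.2%) and milk proteins furthest left (63.2%).

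On genes that separate HR-negative LP from ML, HR-positive LP lay in between, at nearly the same relative distance for genes of either direction. Genes were chosen without use of HR-positive LP, as those over 10 CPM in the higher of the other populations and with more than an 8-fold difference between them. The position of HR-positive LP was then read on the CPM scale from 0 (HR-negative LP) to 1 (ML). For 497 genes lower in ML the median position was 0.697, with 5% of genes below 0.629 and 5% above 0.76. For 387 genes higher in ML the median was 0.69, with the same limits at 0.564 and 0.831. Of these 884 genes 0 had a mean outside the ends. The 3 HR-positive LP libraries gave medians of 0.697, 0.707 and 0.688 for genes lower in ML and 0.653, 0.745 and 0.669 for genes higher in ML. With a difference of over 4-fold the medians were 0.697 and 0.696, and with one of over 32-fold they were 0.7 and 0.682. In single libraries up to 33 of the 387 genes lay past the ML level. Both ends of the scale come from the same fit as the comparison, so the position is a description without a test. Genes near the ML end included Hp (0.955), Dmbt1 (0.946) and Cdcp3 (0.927), and genes with lower positions included Upk3a (0.415) and Il33 (0.524), all chosen after their values were seen. Genes apart from both others were rare. The 3 HR-positive LP libraries lay above all 6 others in 38 genes (0.239% of tested genes) and below all 6 in 50 (0.314%). None was called higher than both others, and 1, Lars2, was called lower than both, at 177, 261 and 305 CPM in HR-positive LP where HR-negative LP had 376, 415 and 853 CPM and ML 502, 923 and 547 CPM (named after its values were seen). Its call against HR-negative LP was lost without HR-negative LP replicate 3 and likewise without HR-positive LP replicate 1 or 2. Col1a2 and Col1a1, named above for their falls, were among the 50 genes below all 6 other libraries. In ML they stood at 5.97 ± 1.35 and 7.32 ± 1.59 CPM, and neither was called between ML and HR-positive LP. In bulk RNA, cells that each hold such intermediate levels, a mixture of cells of both kinds in the gate, fewer cells of a type and less RNA per cell cannot be told apart.

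**Figure D4:**
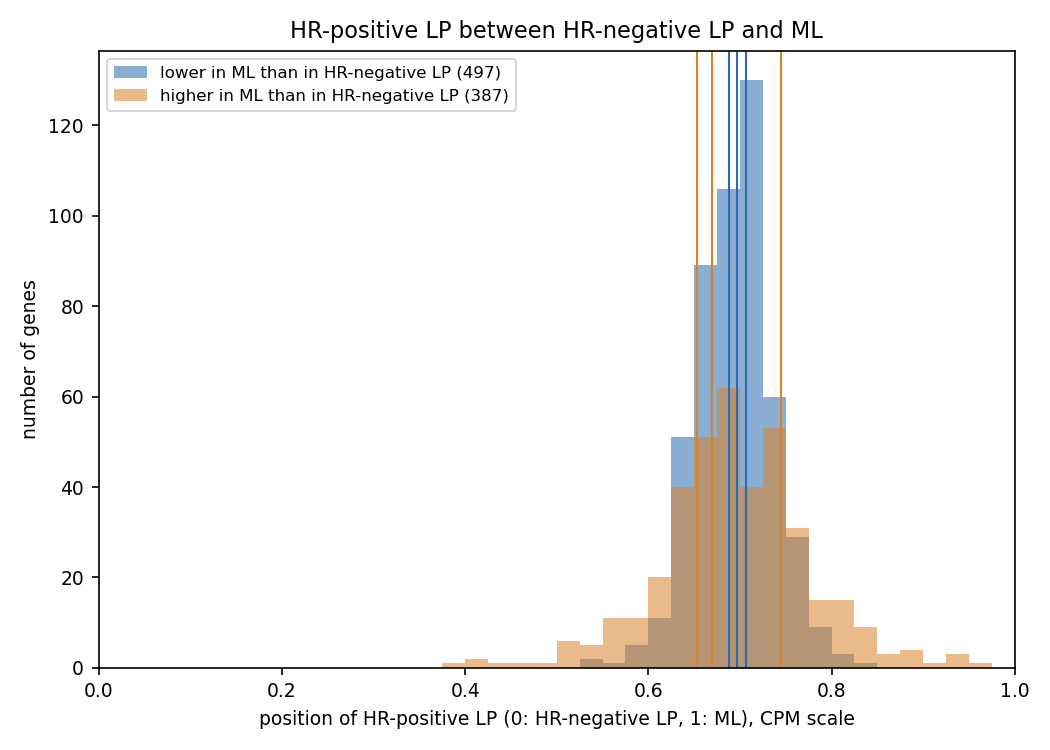
Number of genes (vertical axis) by the position of HR-positive LP on the way from HR-negative LP (0) to ML (1) on the CPM scale (horizontal axis), for 497 genes lower in ML (blue) and 387 genes higher in ML (orange), with thin lines at the medians of the 3 HR-positive LP libraries. Both histograms peak near 0.7, and all 884 genes fall between 0 and 1.

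Some markers of other cell types moved with the populations, 13 of 15 fibroblast markers among them. Of all tested genes 17.2% were higher and 12.8% lower. Among tested fibroblast markers 13.3% rose and 73.3% fell, and among basal markers 0% and 33.3%. Among leukocyte markers 7.69% rose and 15.4% fell, and among endothelial markers 15.4% and 0%. Leukocyte falls and endothelial rises were thus near the shares of all tested genes. Basal and myoepithelial markers, summed over 16 genes, took 154 to 212 CPM in HR-negative LP against 71.99 to 86.1 CPM in HR-positive LP, against 17112 to 19326 and 15938 to 21233 CPM for 12 luminal markers. Of 15 tested basal markers 5 fell, among them Lgals7 from 87.8 ± 27.1 to 25.8 ± 1.82 CPM, and 3 when replicate 1 of HR-positive LP was left out. Fibroblast markers summed to 98.3 to 169 CPM and 176 to 312 CPM, and 11 of 15 fell while 2 rose. Such falls numbered 7 when replicate 2 of HR-positive LP was left out. Col3a1 was at 25.1, 44.7 and 46.1 CPM and 4.71, 2.58 and 10.2 CPM, whereas Dcn, a matrix proteoglycan gene, was at 6.48, 10.3 and 10.02 CPM and 252, 49.9 and 83.3 CPM and Col6a3 at 0.807, 4.697 and 6.55 CPM and 39.7, 119.7 and 61.3 CPM. The 3 HR-positive LP libraries thus differed widely in Dcn while all lay above HR-negative LP. Leukocyte markers summed to 30.05 to 42.9 CPM and 13.3 to 16.7 CPM over 29 genes, and of 13 tested 2 fell and 1 rose. Here falls numbered 1 when replicate 2 of HR-negative LP or replicate 2 or 3 of HR-positive LP was left out. Endothelial markers summed to 10.3 to 20.8 CPM and 53.5 to 69.3 CPM, and 2 of 13 tested rose, with Vwf the highest in HR-positive LP at 44.2, 60.3 and 34.6 CPM, while Pecam1, at 3.39 ± 0.5903 and 2.497 ± 0.861 CPM, was not called. Pericyte and vascular smooth muscle markers summed to 286 to 441 CPM and 318 to 368 CPM, nearly all from Notch3, at 369.9 ± 78.4 and 343 ± 24.6 CPM, and the 5 tested were not called. The B and T cell genes Ms4a1, Cd4 and Cd8a had 0 counts in all 6 libraries, as had the adipocyte genes Adipoq, Lep and Cfd. Adipocyte markers summed to 5.08 to 13.1 CPM and 4.68 to 8.63 CPM. The part of such cells in the results above was not tested.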

How the data were processed

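The 9 libraries were bulk RNA-seq of sorted mammary luminal cells, made with a TruSeq kit per the labels' protocols, a kind that does not mark strand. The deposited values are whole-number counts per NCBI gene ID. The submitters' processing notes name featureCounts and mm10, while the aligner was not given in the sources used here. Of 27179 gene IDs 25275 (93%) matched a symbol in RefSeq GRCm38.p6. The 15910 genes that passed edgeR's filterByExpr were fitted with edgeR 4.0.16 (TMM scaling, quasi-likelihood F test, Benjamini-Hochberg adjustment over all tested genes, threshold 0.05), with all 9 libraries in 1 fit and no covariate. SE is the log2 fold change divided by the root of F. Alternatives used DESeq2 1.42.0, limma 3.58.1, other scaling and filters, the replicate number and each library left out. In simulated counts for this comparison over 15483 genes, 39 of 100 genes changed 2-fold and 77 of 100 changed 4-fold were called, with 3 false calls. Named genes were the 20 largest changes and 12 most abundant called genes in each direction, the genes of the gate and Esr1. Both rankings required an absolute log2 fold change over 1 and left out predicted genes, clones, pseudogenes and unnamed IDs. The largest changes also required a log2 mean CPM over 3 in the 6 libraries and no overlap between the groups. They also took in up to 6 called members of each of 66 gene lists by p, the extremes, up to 2 abundant uncalled members, and all of lists with at most 8 tested genes. The members and lists were chosen with earlier results of these data known. Shared sequence was counted in windows of 50 bases of GENCODE M21 transcripts.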

Additional observations from a re-analysis of the deposited data

How the results depend on the processing

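Across the leave-one-out fits, genes higher in HR-positive LP numbered 1982 to 3222 and genes lower 1211 to 2290, against 2731 and 2033. The lowest counts of lower genes came without HR-positive LP replicate 2 (1211) and replicate 1 (1329). The remaining alternatives stayed within 1.5 times of the counts reported, from 2248 (only the 6 libraries compared) to 3182 (library totals) higher and from 1535 (library totals) to 2769 (DESeq2) lower. With the replicate number as a replicate block the counts were 3068 higher and 2395 lower. The numbers are not known to pair libraries: the deviations of same-numbered HR-negative and HR-positive LP libraries correlated at 0.283, 0.0871 and 0.376, and each library correlated best with its own number. No called gene named here lost its call under the block, and 5 uncalled ones gained one: Erbb3 (adjusted p = 0.0098), Il6st (0.0274), Lrp5 (0.0213), Osmr (0.0293) and Rela (0.0176). Under the block peptide hormone genes had 3 rises, mitochondrial ribosomal genes 15, retinoid genes 4 and DNA replication genes 3, and S100 and annexin genes had 5 falls.

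Of 209 named genes that were called, 194 kept their call in every alternative, 15 lost it in at least 1, and 0 changed sign. The uncalled genes below changed sign. The log2 fold change of Bcl2l1 was -0.03 with DESeq2 and -0.00 with the CPM filter, and from -0.06 to 0.18 over the fits that left out 1 library. Fasn was at -0.03 with DESeq2, -0.00 with the CPM filter and from -0.30 to 0.36 with 1 library left out. Jun ranged from -0.39 to 0.19 with 1 library left out. The log2 fold change of Notch3 was 0.01 with library totals and from -0.26 to 0.04 with 1 library left out. Sox9 was at 0.07 with library totals and from -0.23 to 0.12 with 1 library left out. Upk1a was at 0.75 with limma voom, 0.02 with the replicate block and from -0.86 to 0.16 with 1 library left out. The cause was not tested. With 3 libraries a group, rises of 2-fold were often not called in simulated counts with few changed genes, a rate that need not hold in these data.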

Other observations

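Further gene groups changed in both directions, and their counts depended on single libraries, beside 17.2% higher and 12.8% lower of all tested genes. Among S100 and annexin genes 7 rose and 3 fell of 21 tested (median log2 fold change -0.12). Rises numbered 4 when replicate 2 of HR-positive LP was left out. Falls numbered 5 when replicate 2 of ML was left out, and 5 with DESeq2 and 6 with limma voom. Among heat shock chaperones 3 rose and 4 fell of 29 tested (median log2 fold change -0.08). The rises numbered 1 when replicate 2 or 3 of HR-positive LP or replicate 2 of ML was left out. The falls numbered 2 when replicate 1 or 2 of HR-positive LP was left out. Among proteasome subunits 6 rose and 1 fell of 46 tested (median log2 fold change 0.19). Such rises numbered 18 when replicate 1 of HR-negative LP was left out, 3 when replicate 2 of HR-negative LP or replicate 1 of HR-positive LP was left out and 2 when replicate 2 of HR-positive LP was left out. Such falls numbered 2 when replicate 3 of HR-negative LP was left out and 0 when replicate 2 or 3 of HR-positive LP was left out, and 0 with library totals or only the 6 libraries compared and 2 with DESeq2. Aminoacyl-tRNA synthetase genes, which load tRNAs for translation, were mostly not called: 4 rose and 2 fell of 39 tested (median log2 fold change 0.08). Here rises numbered 1 when replicate 2 of HR-negative LP or replicate 2 of HR-positive LP was left out and 2 when replicate 3 of HR-positive LP was left out. Here falls numbered 4 when replicate 1 of HR-negative LP was left out, 1 when replicate 3 of HR-negative LP or replicate 3 of HR-positive LP was left out and 0 when replicate 1 or 2 of HR-positive LP was left out, and 1 with library totals, 5 with DESeq2 and 4 with limma voom. Of genes of retinoid synthesis, binding and turnover 2 rose and 3 fell of 16 tested (median log2 fold change 0.06). Rises numbered 1 when replicate 1 or 2 of HR-negative LP, replicate 1, 2 or 3 of HR-positive LP or replicate 2 or 3 of ML was left out. In homologous recombination and strand break repair 2 rose and 1 fell of 35 tested (median log2 fold change -0.12). The rises numbered 1 when replicate 1 of HR-negative LP, replicate 1, 2 or 3 of HR-positive LP or replicate 1, 2 or 3 of ML was left out, and 1 with only the 6 libraries compared or DESeq2. Falls numbered 0 when replicate 2 of HR-negative LP or replicate 1, 2 or 3 of HR-positive LP was left out, and 3 with DESeq2 and 2 with limma voom.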
